A study of Mus musculus with 12 samples.

Results

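Grem1 and 9 other genes of the bone morphogenetic protein (BMP) pathway, 10 of the 25124 genes listed in the deposited tables, were followed through 12 RNA-seq libraries of mouse retina. They comprised the antagonist Grem1, the ligands Bmp2, Bmp4 and Bmp7, the type I receptors Bmpr1a and Bmpr1b, the target genes Id1, Id2 and Id3, and the intracellular inhibitor Smad6. All 10 were found by symbol in both tables. Measured values of these same libraries had a part in choosing them, so their levels and differences are given as a description, with no p-value.

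The study examined how aging and mild elevation of intraocular pressure (IOP) alter the retina of wild-type (WT) mice. In every treated animal the pressure of 1 eye was raised to 30 mmHg for 1 h, and the untreated contralateral eye gave the control, so that no control retina came from an untouched animal. In the single-IOP series, retinas of 3-month-old and 18-month-old mice were collected on day 2, which gave 3mo control and 3mo IOP from the young and 18mo control and 18mo IOP from the old. In the repeated-IOP series, mice that were 3 months old at the first elevation underwent 4 biweekly elevations, and their retinas were collected on day 2 after the last, which gave 4xIOP control and 4xIOP. Each of the 6 groups had 2 libraries of poly(A) RNA from whole retina, which the study describes as biological replicates, although the labels do not say which libraries came from the same animal.

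BMPs are secreted ligands of the TGF-β superfamily. They bind complexes of type I and type II receptor kinases, which phosphorylate SMAD1, SMAD5 and SMAD9, and these enter the nucleus with SMAD4 and switch on targets such as the Id genes. GREM1 (gremlin) is a secreted protein that binds BMP ligands, BMP2, BMP4 and BMP7 among them, and keeps them from their receptors, while SMAD6 is itself a target of the pathway and restrains it from inside the cell. In the eye, BMP signaling is known for dorsal patterning of the optic cup and for its part in the trabecular meshwork and optic nerve head, where gremlin has been studied in glaucoma.

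The upstream sequences of Grem1, Id2 and Id3 are shown because these genes had the largest differences of the set between IOP and control retinas, Grem1 in young and Id2 and Id3 in aged retinas. Each line gives the 250 bases before the annotated start in RefSeq (GRCm38.p6), read 5′ to 3′ on the strand of the gene, at chr2:113758649-113758898 (minus strand) for Grem1, chr12:25096093-25096342 (minus strand) for Id2 and chr4:136143572-136143821 (plus strand) for Id3. Capitals mark GGCGCC, a GC-rich element described in promoters that respond to BMP, and CAGAC or its complement GTCTG, the core bound by SMADs.
Grem1: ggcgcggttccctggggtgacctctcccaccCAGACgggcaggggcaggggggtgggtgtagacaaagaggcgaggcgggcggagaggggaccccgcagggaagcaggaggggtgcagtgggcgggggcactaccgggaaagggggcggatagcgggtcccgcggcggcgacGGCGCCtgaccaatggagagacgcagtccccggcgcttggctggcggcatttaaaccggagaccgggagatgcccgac
Id2: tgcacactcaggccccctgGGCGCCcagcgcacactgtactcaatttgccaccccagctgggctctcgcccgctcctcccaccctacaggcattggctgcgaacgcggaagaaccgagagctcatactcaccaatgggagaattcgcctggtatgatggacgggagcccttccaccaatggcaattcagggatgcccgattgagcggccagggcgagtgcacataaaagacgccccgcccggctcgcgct
Id3: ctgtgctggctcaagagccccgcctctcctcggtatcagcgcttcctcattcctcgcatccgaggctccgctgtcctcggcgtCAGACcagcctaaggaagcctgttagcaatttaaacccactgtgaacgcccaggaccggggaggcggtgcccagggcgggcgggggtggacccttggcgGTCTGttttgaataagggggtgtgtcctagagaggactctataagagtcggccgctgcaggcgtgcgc

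GGCGCC began 78 bases before the start of Grem1 and 231 bases before that of Id2, and was absent from the Id3 window. CAGAC began 219 bases before the start of Grem1, and Id3 held it at 167 bases and, on the other strand, at 68 bases before the start. RefSeq windows of 300 bases, 250 before and 50 after a start, were at hand for 7 of the 10 genes, in 9 windows. GGCGCC was in 3 of these 9 windows and in 11.9% of 32851 windows of the same length genome-wide. CAGAC on either strand was in 4 of the 9 windows and in 49.6% of all windows, and both together were in 1 of the 9, that of Grem1, and in 5.24% of all. These matches describe the letters in the window and nothing about occupancy.

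Values are FPKM, fragments per kilobase of transcript scaled to the mapped tags of a library. The weight of short against long transcripts differed between libraries, as given below, so levels of genes of unlike length are only roughly comparable. The 2 series were normalized in separate tables and were compared only within a table. The number of tags recovered from the values was 39766265 to 59455028 per library. The rod photoreceptor genes Gnat1, at 1031 to 5669 FPKM, and Nrl, at 154 to 685 FPKM, were abundant in all 12 libraries, as a retina should show. The ratio of the median FPKM for transcripts shorter than 1000 bases to that for transcripts from 4000 bases up lay at 1.89 and 4.70 in 3mo control, at 2.99 to 3.26 in 3mo IOP and at 1.20 to 1.36 in the 4 libraries at 18 months, so young libraries, and 3mo control replicate 2 above all, were weighted toward short transcripts. In bulk tissue a change in the number of cells of a type cannot be told apart from a change in RNA per cell.

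The 10 genes spanned a wide range of levels. In the 3mo control libraries Bmpr1a was the most abundant, followed by Id2 and Id3, whose values overlapped, then Id1. Bmpr1b, and below it Bmp4 and Bmp7, which overlapped, lay near 1 FPKM, while Bmp2, Grem1 and Smad6 were under 0.5 FPKM, with Bmp2 above the overlapping other two. In 18mo IOP the order was headed by Id2 and Id3, which overlapped each other, while Id3 also overlapped Id1, and Id1 overlapped Bmpr1a. Grem1 was counted with 4 to 535 reads per library and Bmp4 with 6 to 215, against 3452 to 10320 for Bmpr1a, so the spread of the rare genes includes more counting error.

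**Figure D1:**
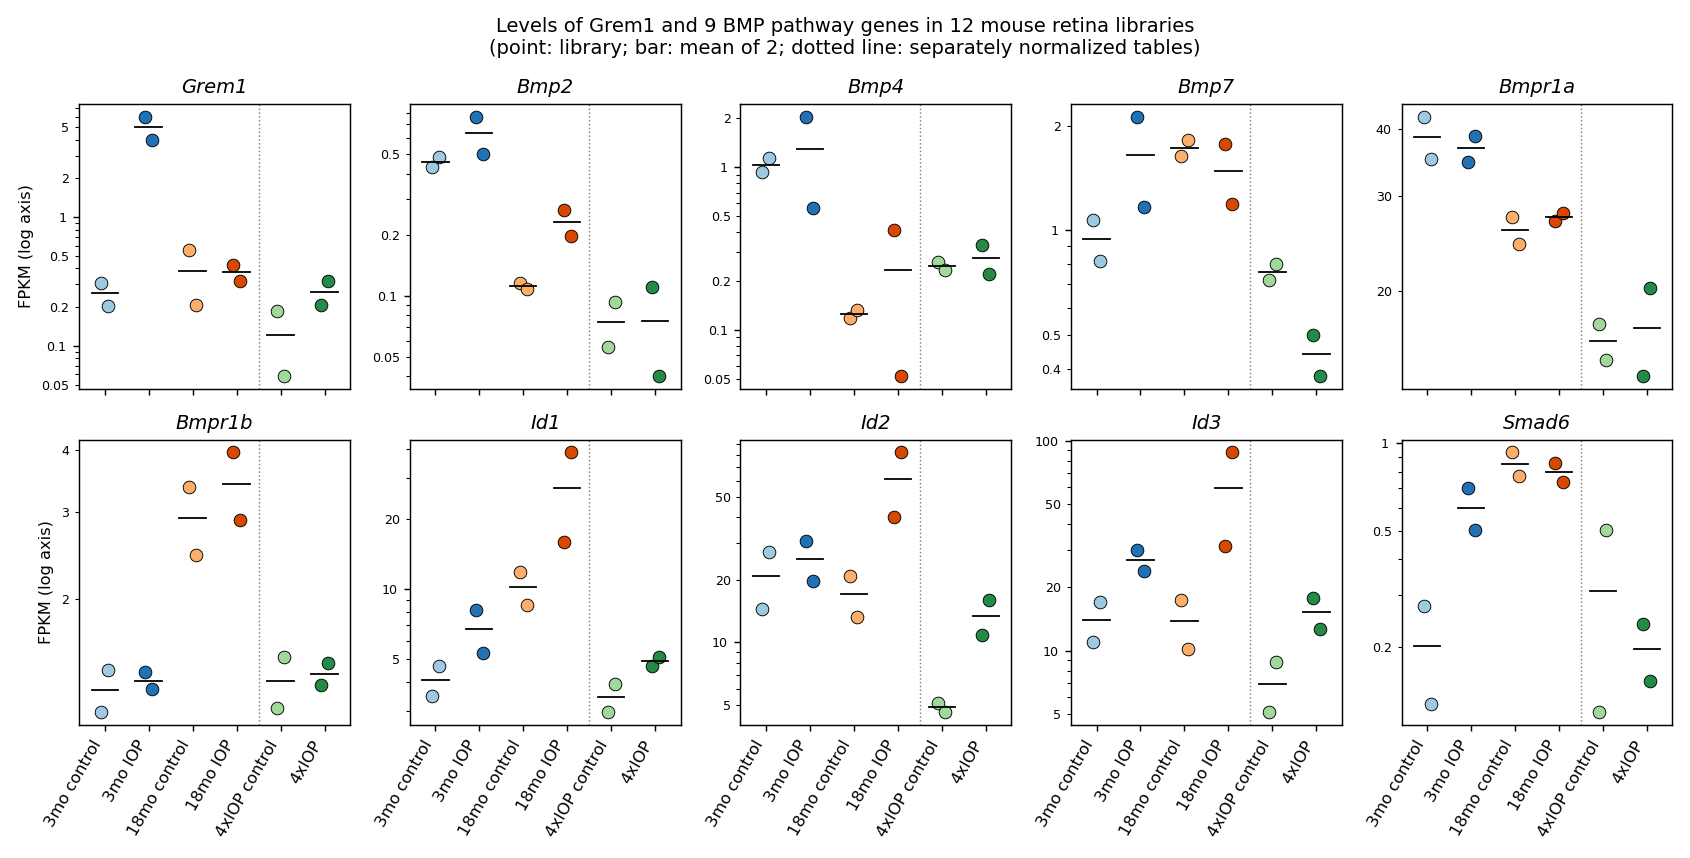
FPKM on a log axis of each of the 10 genes in the 12 libraries, with a point for a library, a bar for the mean of 2 and a dotted line between the separately normalized tables. Grem1 stands at 3.93 and 6.02 FPKM in 3mo IOP and at or under 0.558 FPKM elsewhere, and Id1, Id2 and Id3 are highest in 18mo IOP.

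Grem1 (NM_011824, mm10 chromosome 2, 113748675 to 113758648, minus strand) had 0.309 and 0.205 FPKM in 3mo control and 6.02 and 3.93 FPKM in 3mo IOP. It had 0.558 and 0.209 FPKM in 18mo control and 0.423 and 0.319 FPKM in 18mo IOP. Both 3mo IOP libraries therefore stood far above the other 6 of the series, which lay between 0.205 and 0.558 FPKM. The ratio of means in young retinas was 19.4, on 21 and 16 reads in the controls against 535 and 268, and the log2 difference of FPKM + 0.5, the scale of all log2 differences here, was 2.83 ± 0.29 (SE from limma, n = 2 per group). In aged retinas the same difference was 0.01 ± 0.29.

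Between the ages, Grem1 differed by 0.20 ± 0.29 in control retinas and by -2.63 ± 0.29 in IOP retinas. The interaction, the response at 18 months less that at 3 months, was -2.83 ± 0.40, and it was negative under each of the alternatives run, from -4.06 to -2.23, and with each library left out. With a library left out, the difference in 3mo IOP lay between 2.55 and 3.11, and voom on the recovered reads gave 4.05 on the scale of log2 reads.

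In the repeated-IOP series Grem1 was low in both groups, with 0.185 and 0.058 FPKM in 4xIOP control and 0.207 and 0.318 FPKM in 4xIOP. The groups did not overlap, but the values rested on 4 to 22 reads and the log2 difference was 0.30, under the mean of 0.5 FPKM set for the test.

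The 5 tested genes whose pattern was most like that of Grem1 were chosen by Pearson's r of log2(FPKM + 0.5) over the 8 single-IOP libraries. They were Tagln (r = 0.983) and Acta2 (0.976), which encode transgelin and smooth muscle actin, Rab38 (0.972), a small GTPase of melanosome biogenesis, C2 (0.968), a complement protein, and Aebp1 (0.967), a secreted protein of connective tissue. Acta2 had 2.25 and 1.67 FPKM in 3mo control, reached 46.0 and 16.8 FPKM in 3mo IOP and lay between 2.76 and 3.84 FPKM at 18 months. Like Grem1 it was higher in 3mo IOP replicate 1 than in replicate 2, and the same held for the other 4. The points share their libraries and the r rests on the 2 libraries of 3mo IOP. By Spearman's rank correlation 1 of the 5 remained among the closest 5, and with a pseudocount of 0.1 there were 4.

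Markers of contractile and connective tissue also had higher sums in 3mo IOP than in 3mo control. The 10 markers of smooth muscle and pericytes summed to 10.7 and 11.8 FPKM in 3mo control, against 45.2 and 102 FPKM in 3mo IOP. Acta2 and Tagln, just named for their likeness to Grem1, made up 31.6 and 85.5 FPKM of the latter, and the other 8 summed to 6.77 and 7.51 FPKM in 3mo control and 13.6 and 17.04 FPKM in 3mo IOP. The 7 fibroblast markers summed to between 6.93 and 8.28 FPKM and between 21.4 and 60.3 FPKM. Dcn, a proteoglycan of fibroblasts, had 2.27 and 3.40 FPKM in 3mo control and 41.8 and 11.4 FPKM in 3mo IOP. All 10 and all 7 were above the floor of 3 reads in a library of each of these groups. At 18 months the smooth muscle and pericyte sum was 39.6 to 56.4 FPKM, but it was made mostly of the pericyte gene Rgs5 (25.1 to 39.6 FPKM), and fibroblast markers summed to between 3.18 and 7.77 FPKM. Astrocyte markers were also higher in 3mo IOP, at 6.33 to 10.98 FPKM in 3mo control and 34.0 to 37.9 FPKM in 3mo IOP, as were those of microglia and leukocytes, at 4.87 to 6.47 and 9.21 to 9.58 FPKM, and of endothelial cells, at 12.2 to 15.5 and 15.6 to 19.6 FPKM. The highest single astrocyte marker averaged 6.48 FPKM in 3mo control and 28.1 FPKM in 3mo IOP. The part of these cells in the values of Grem1 and of the Id genes in 3mo IOP was not tested. Retinal pigment epithelium markers overlapped, at 147 to 183 FPKM in 3mo control and 80.6 to 215 FPKM in 3mo IOP.

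**Figure D2:**
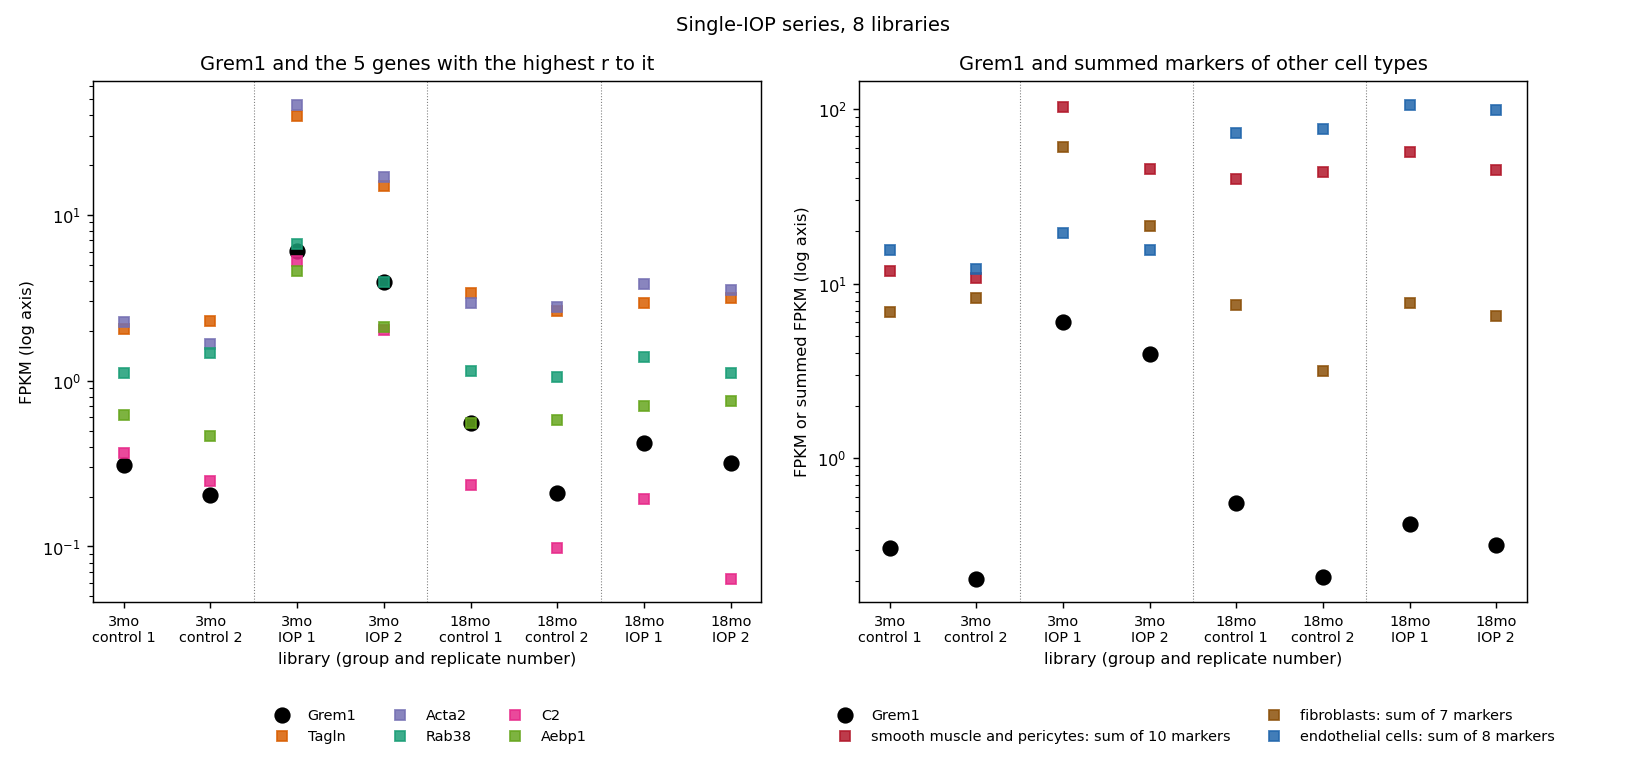
FPKM on a log axis in the 8 single-IOP libraries, with Grem1 and the 5 genes of highest r to it on the left and Grem1 with summed markers of smooth muscle and pericytes, fibroblasts and endothelial cells on the right. Grem1, Acta2, Tagln and the fibroblast sum peak together in the 2 libraries of 3mo IOP, while endothelial markers are high at 18 months.

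Other secreted antagonists and modulators were set beside Grem1 after their values were seen. In 3mo IOP, Nbl1 had 17.0 and 11.4 FPKM, Twsg1 11.4 and 10.1 FPKM and Fstl1 8.37 and 6.68 FPKM, all above the 2 Grem1 values, and Chrdl1 had 5.07 and 3.86 FPKM, which overlapped them. In the same libraries, Chrd had 0.510 and 0.450 FPKM, Nog 0.326 and 0.125 FPKM and Fst 0.303 and 0.113 FPKM, all under the 2 Grem1 values. In 3mo control the order was otherwise, with Chrd at 0.385 and 0.348 FPKM, above Grem1.

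Of the ligands, Bmp4 differed with age. Bmp4 (NM_001316360, chromosome 14, 46383525 to 46390669, minus strand) had 0.936 and 1.14 FPKM in 3mo control and 0.118 and 0.133 FPKM in 18mo control, a ratio of means of 8.27 in favor of the young and a log2 difference of -1.29 ± 0.42. In IOP retinas it had 2.05 and 0.560 FPKM at 3 months and 0.415 and 0.052 FPKM at 18 months, a difference of -1.21 ± 0.42. The age groups did not overlap in either condition. The response to IOP was 0.10 ± 0.42 in young and 0.18 ± 0.42 in aged retinas, and at both ages the 2 treated libraries lay on either side of their controls. With each library left out in turn, the lone library of its group being taken to vary like the others, the age difference in controls lay between -1.39 and -1.20. In IOP retinas it was -0.58 without 3mo IOP replicate 1 and -0.85 without 18mo IOP replicate 2. Markers of other cell types were lower in aged retinas too, with retinal pigment epithelium genes at 147 to 183 FPKM in 3mo control and 15.01 to 22.4 FPKM in 18mo control, and retinal ganglion cell genes at 229 to 533 FPKM and 26.5 to 59.2 FPKM. In IOP retinas the former were at 80.6 to 215 and 14.8 to 21.8 FPKM and the latter at 363 to 401 and 24.8 to 70.2 FPKM. A single gene made up most of these sums. In 3mo and 18mo control the highest marker averaged 122 and 14.8 FPKM for pigment epithelium and 297 and 27.8 FPKM for ganglion cells. Rod markers were also lower, at 19826 to 22804 FPKM in 3mo control and 14784 to 16518 FPKM in 18mo control, as were lens markers, at 1.78 to 2.73 and 0.565 to 0.579 FPKM. Fibroblast markers were at 21.4 to 60.3 FPKM in 3mo IOP and 6.50 to 7.77 FPKM in 18mo IOP. Müller glia, endothelial, microglia and leukocyte, and smooth muscle and pericyte markers were higher in 18mo control. The part of these cells in the Bmp4 values was not tested. A gene on the opposite strand, Gm15217, overlaps Bmp4, and the counting used strand.

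Bmp2 showed the same age order at lower levels. Bmp2 (NM_007553, chromosome 2, 133552159 to 133562896, plus strand) had 0.433 and 0.482 FPKM in 3mo control, 0.765 and 0.499 FPKM in 3mo IOP, 0.115 and 0.108 FPKM in 18mo control and 0.266 and 0.198 FPKM in 18mo IOP. Its age groups did not overlap, and at each age the IOP libraries lay above the controls. Its mean was under 0.5 FPKM, so it did not enter the test, and the log2 differences with age were -0.65 in controls and -0.62 in IOP retinas. In 4xIOP control and 4xIOP it was listed at 0.056 and 0.093 and at 0.110 and 0.040 FPKM, on 6 to 22 reads.

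Bmp7 went the other way in control retinas. Bmp7 (NM_007557, chromosome 2, 172868012 to 172940321, minus strand) had 1.07 and 0.818 FPKM in 3mo control and 1.63 and 1.81 FPKM in 18mo control, a difference of 0.63 ± 0.27. It had 2.12 and 1.17 FPKM in 3mo IOP, both above the young controls (0.54 ± 0.27), and 1.76 and 1.19 FPKM in 18mo IOP, which overlapped the aged controls (-0.18 ± 0.27). In the repeated series it had 0.721 and 0.800 FPKM in 4xIOP control and 0.501 and 0.381 FPKM in 4xIOP, with both treated libraries lower (-0.42 ± 0.25). With a library left out, the difference in 3mo IOP lay between 0.21 without 3mo IOP replicate 1 and 0.87 without 3mo IOP replicate 2, and that in 4xIOP between -0.52 and -0.33. Bmp4 had 0.261 and 0.233 FPKM in 4xIOP control and 0.332 and 0.221 FPKM in 4xIOP, which overlapped.

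The receptors differed little between IOP and control retinas. Bmpr1a (NM_009758, chromosome 14, 34411068 to 34502546, minus strand) had 42.1 and 35.2 FPKM in 3mo control and 34.8 and 38.8 FPKM in 3mo IOP, overlapping values with a difference of -0.07 ± 0.17. In 18mo control it had 27.5 and 24.5 FPKM and in 18mo IOP 27.0 and 27.9 FPKM, again overlapping (0.08 ± 0.17). The aged libraries were all under the young ones, by -0.56 ± 0.17 in controls and -0.41 ± 0.17 in IOP retinas. In 4xIOP control and 4xIOP it had 17.4 and 14.9 and 13.9 and 20.3 FPKM (0.06 ± 0.26).

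Bmpr1b, the other type I receptor of the set, had the opposite age order. It had 1.18 and 1.44 FPKM in 3mo control, 1.42 and 1.31 FPKM in 3mo IOP, 3.37 and 2.45 FPKM in 18mo control and 3.95 and 2.89 FPKM in 18mo IOP. Every aged library was above every young library, and the differences with age were 0.91 ± 0.23 in controls and 1.06 ± 0.23 in IOP retinas. The latter, with a library left out, lay between 0.86 and 1.26. The response to IOP was 0.05 ± 0.23 in young and 0.20 ± 0.23 in aged retinas, and in the repeated series 1.20 and 1.52 FPKM stood against 1.34 and 1.48 FPKM. Bmpr1b is the only member whose transcript differs between the tables, NM_007560 in the single-IOP and NM_001355043 in the repeated-IOP series.

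Bmpr1a, lower with age, and Bmpr1b, higher with age, thus lay closer to each other in aged retinas, and Bmpr1a was the more abundant receptor in all 12 libraries. The signs of both age differences were the same under every alternative run, with Bmpr1a between -1.002 and -0.33 and Bmpr1b between 0.47 and 1.09 in control retinas.

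The Id genes encode helix-loop-helix proteins that block differentiation factors and are the classical immediate targets of BMP signaling. Id3 (NM_008321, chromosome 4, 136143822 to 136145392, plus strand) had 10.999 and 17.0 FPKM in 3mo control, 30.0 and 23.9 FPKM in 3mo IOP, 17.4 and 10.2 FPKM in 18mo control and 31.3 and 87.9 FPKM in 18mo IOP. At each age both IOP libraries were above both controls, by 0.94 ± 0.47 in young and 1.94 ± 0.47 in aged retinas. The library 18mo IOP replicate 2 was the highest of the 8.

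Id2 (NM_010496, chromosome 12, 25093799 to 25096092, minus strand) had 14.6 and 27.4 FPKM in 3mo control and 30.6 and 19.8 FPKM in 3mo IOP, which overlapped (0.30 ± 0.43). It had 21.0 and 13.3 FPKM in 18mo control and 39.99 and 82.0 FPKM in 18mo IOP, without overlap (1.75 ± 0.43). The interaction with age was 1.45 ± 0.61.

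Id1 (NM_001355113, chromosome 2, 152736251 to 152737410, plus strand) was the Id gene with an age difference in controls. It had 3.48 and 4.66 FPKM in 3mo control and 11.9 and 8.55 FPKM in 18mo control (1.22 ± 0.40), while the IOP retinas had 8.13 and 5.31 FPKM at 3 months and 15.9 and 38.7 FPKM at 18 months (1.84 ± 0.40). The response to IOP was 0.65 ± 0.40 in young and 1.26 ± 0.40 in aged retinas, without overlap at either age. With a library left out, the young response lay between 0.36 and 0.93. With age in controls, Id2 and Id3 overlapped, at -0.25 ± 0.43 and -0.03 ± 0.47, and their sign turned when the length trend was removed (0.24 and 0.72). The age difference of Id1, with a library left out, lay between 1.00 and 1.45 in controls and between 1.21 and 2.47 in IOP retinas. Beside the higher values of Id1, Bmpr1b and Smad6 in 18mo control, Müller glia markers were at 428 to 528 FPKM in 3mo control and 887 to 1151 FPKM in 18mo control, endothelial markers at 12.2 to 15.5 and 72.8 to 76.9 FPKM, microglia and leukocyte markers at 4.87 to 6.47 and 13.4 to 15.6 FPKM, and smooth muscle and pericyte markers at 10.7 to 11.8 and 39.6 to 43.6 FPKM. The highest single Müller glia marker averaged 291 FPKM in 3mo control and 767 FPKM in 18mo control. The part of all these cells in these values was not tested.

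All 3 Id genes were higher in 18mo IOP replicate 2 than in replicate 1. Without replicate 2 the differences from 18mo control were 0.63 for Id1, 1.24 for Id2 and 1.20 for Id3, and without replicate 1 they were 1.89, 2.26 and 2.67. Their sign was positive under every alternative run. Gfap, the astrocyte and reactive Müller glia gene, had 4.87 and 4.39 FPKM in 18mo control and 31.4 and 87.5 FPKM in 18mo IOP, so that the library with more Id RNA also had more Gfap. The astrocyte list of 3 genes summed to between 6.83 and 7.06 FPKM and between 35.5 and 92.2 FPKM, with Pax2 near 0 (0.05 to 0.20 FPKM), and Müller glia markers to 887 to 1151 FPKM and 991 to 1242 FPKM. Endothelial markers were also higher, at 72.8 to 76.9 and 98.7 to 106 FPKM, as were those of smooth muscle and pericytes, at 39.6 to 43.6 and 44.7 to 56.4 FPKM, and lens, at 0.565 to 0.579 and 0.968 to 3.13 FPKM, while blood markers were lower, at 166 to 426 and 44.3 to 54.3 FPKM, as was the rod gene Gnat1, at 4277 to 4868 and 3061 to 4165 FPKM. The part of these cells in the Id values was not tested. Without replicate 1, the difference between the IOP groups was 1.71 for Id2 and 1.70 for Id3, and without replicate 2 it was 0.69 and 0.22, where all 8 libraries gave 1.20 ± 0.43 and 0.96 ± 0.47.

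In the repeated series the Id genes were again higher after pressure. Id2 had 5.14 and 4.62 FPKM in 4xIOP control and 10.8 and 16.0 FPKM in 4xIOP (1.35 ± 0.23), and Id3 had 5.09 and 8.82 FPKM and 17.8 and 12.7 FPKM (1.11 ± 0.27). Id1 had 2.96 and 3.92 FPKM and 4.68 and 5.09 FPKM (0.46 ± 0.20). In all 3 the groups did not overlap. With a library left out, the difference lay between 1.08 and 1.62 for Id2, between 0.74 and 1.47 for Id3 and between 0.29 and 0.64 for Id1. Markers of other cell types moved as well, with microglia and leukocyte genes at 2.71 to 2.96 FPKM in 4xIOP control and 26.2 to 31.5 FPKM in 4xIOP, astrocyte genes at 4.999 to 6.29 and 37.0 to 48.2 FPKM, lens genes at 0.222 to 0.635 and 11.03 to 21.0 FPKM, and Müller glia genes at 715 to 747 and 363 to 452 FPKM. The highest single astrocyte marker averaged 3.20 FPKM in 4xIOP control and 39.4 FPKM in 4xIOP. The highest single Müller glia marker averaged 586 and 270 FPKM, most of its sums. Endothelial genes were at 32.7 to 39.4 and 63.7 to 67.8 FPKM, retinal pigment epithelium genes at 27.2 to 34.2 and 6.46 to 10.6 FPKM, and Gnat1 at 2535 to 2835 and 1031 to 1558 FPKM. Smooth muscle and pericyte genes were at 14.1 to 16.4 and 19.3 to 20.9 FPKM and fibroblast genes at 2.02 to 2.51 and 3.29 to 4.33 FPKM, and blood and retinal ganglion cell genes overlapped. Their part in the Id values was not tested.

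Smad6, the inhibitory SMAD, was lowest in young control retinas. Smad6 (NM_008542, chromosome 9, 63953076 to 64022059, minus strand) had 0.276 and 0.127 FPKM in 3mo control, 0.702 and 0.502 FPKM in 3mo IOP, 0.931 and 0.771 FPKM in 18mo control and 0.860 and 0.737 FPKM in 18mo IOP. The 3mo control libraries were the lowest of the 8, and aged IOP and control libraries overlapped. The difference was 0.65 ± 0.23 for pressure in young retinas, -0.06 ± 0.23 in aged retinas and 0.95 ± 0.23 for age in controls. In the repeated series it had 0.119 and 0.502 FPKM in 4xIOP control and 0.240 and 0.152 FPKM in 4xIOP, with the controls on either side.

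**Figure D3:**
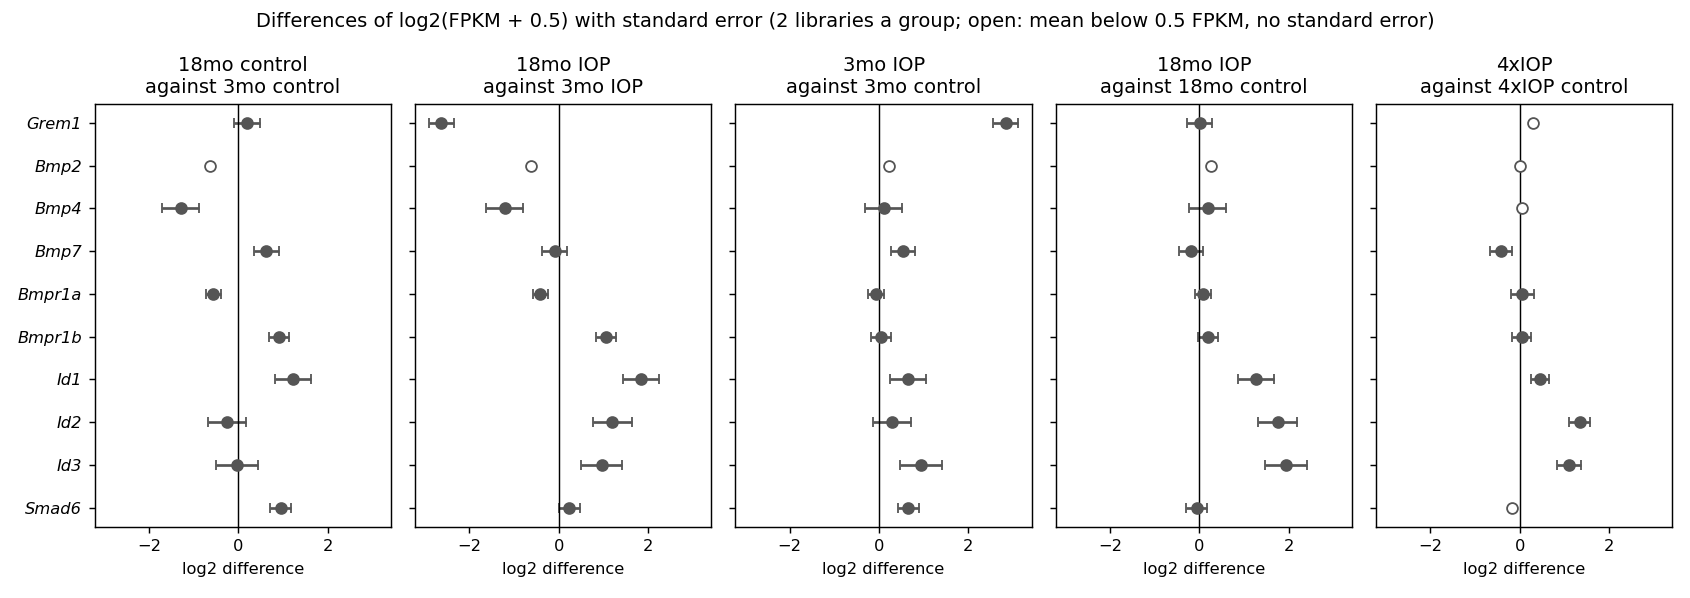
Differences of log2(FPKM + 0.5) for the 10 genes in 5 comparisons, with the standard error from limma and open points where the mean of a gene was under 0.5 FPKM and no standard error is given. Grem1 stands apart at 2.83 in 3mo IOP, and the Id genes lie to the right in 18mo IOP and in 4xIOP.

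A gene was taken as called where p after Benjamini-Hochberg adjustment over all tested genes did not exceed 0.05 and the log2 difference reached 1 in size, whereas for the interaction adjusted p sufficed, which 0.0% of the 13731 tested genes met. Counted over the set, 9 of the 10 genes passed the filter on low values in the single-IOP series and 6 in the repeated-IOP series, where Grem1, Bmp2, Bmp4 and Smad6 did not. In 18mo control against 3mo control, 1 of 9 was called higher (Id1) and 1 lower (Bmp4), against 11.6% and 11.6% of all 13731 tested genes. In 18mo IOP against 3mo IOP, 2 were called higher (Id1 and Bmpr1b) and 2 lower (Grem1 and Bmp4), against 10.2% and 11.6%. In 3mo IOP, 1 was called higher (Grem1) and 0 lower, against 0.568% and 0.00728%, and in 18mo IOP 0 were called, against 0.117% higher and 0.00728% lower. In 4xIOP, 2 of 6 were called higher (Id2 and Id3) and 0 lower, against 5.45% and 0.693% of 13718. Grem1 passed the filter only through 3mo IOP, with a mean of 4.98 FPKM there and 0.257, 0.3835 and 0.371 FPKM in 3mo control, 18mo control and 18mo IOP. Bmp4 passed only through 3mo control and 3mo IOP (1.038 and 1.306 FPKM, against 0.1255 and 0.2335 FPKM at 18 months). Both calls of Bmp4 were lost with no filter on low values. For these reasons, and since values of these contrasts helped to choose the genes, nothing is read from these counts. Over all genes, the 1595 higher and 1590 lower calls with age in controls became 1061 and 1971 with median-of-ratios size factors. The groups did not overlap for 6 of the 10 genes in 3mo IOP, all higher, against 25.9% higher and 4.88% lower of all 20302 genes above 0 in a library. They did not overlap for 4 in 18mo IOP, all higher (Bmp2, Id1, Id2 and Id3), against 30.0% and 8.99%, and for 5 in 4xIOP, 4 higher and Bmp7 lower, against 28.1% and 11.7% of 19593. With age, 4 were higher and 3 lower without overlap in controls, against 36.5% and 27.7%, and 5 and 4 in IOP retinas, against 34.5% and 29.9%. Each of the age comparisons shares its control or its IOP libraries with the IOP comparisons, so their values are given side by side only.

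These 9 calls are on genes chosen partly from these values, so they describe the fits and are no support for a change. They were unequal in how they depended on libraries and settings. That of Grem1 between the IOP groups was kept under all 10 alternatives and with each of the 4 libraries left out, and that of Grem1 in 3mo IOP under 9 of 10 alternatives, all but voom, but only without 3mo control replicate 2 among the left-out libraries. Between the IOP groups, Id1 was called under all 11 alternatives but not without 3mo IOP replicate 1 or replicate 2. Bmpr1b was called there under 7 of 11 and, among the left-out libraries, without 18mo IOP replicate 2, and Bmp4 under 6 of 10 but not without 3mo IOP replicate 1 or 18mo IOP replicate 2. With age in controls, Id1 was called under 6 of 11 and Bmp4 under 7 of 10 alternatives, and neither with any library left out. In 4xIOP, Id2 was called under all 10 but not without 4xIOP control replicate 2, and Id3 under 5 of 10 and, among the left-out libraries, without 4xIOP control replicate 2.

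A list of 53 other genes of the pathway, ligands, receptors, modulators, SMADs and targets, was read against the same fits. Of these, 35 passed the filter in the single-IOP series, and 18 did not, among them Bmp6, Nog, Fst and Gdf6. With age in control retinas 13 of the 35 were called higher and 1 lower, against 11.6% and 11.6% of all tested genes. An unadjusted limma p under 0.05 was reached by 22 of the 35 and by 7568 of all 13731 tested genes. The median log2 difference of the 35 was 0.71, against 0.16 over all tested genes. By role, 6 of 9 receptors and co-receptors, 4 of 10 extracellular modulators, 1 of 2 ligands, 1 of 4 targets and 1 of 10 SMADs and intracellular inhibitors were higher. Eng, the endoglin co-receptor of endothelial cells, had 0.226 and 0.129 FPKM in 3mo control and 2.80 and 3.29 FPKM in 18mo control (2.39 ± 0.21, limma adjusted p = 0.00265). It passed the filter only through the 18-month groups where it was high. Its means were 0.1775 FPKM in 3mo control and 0.4955 FPKM in 3mo IOP, which limits both of its age comparisons.

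Next came Tbx2, a transcription factor of dorsal retina (1.72 ± 0.27, adjusted p = 0.00543 by limma), and Acvrl1, the ALK1 receptor of vascular endothelium (1.63 ± 0.22, adjusted p = 0.00484 by limma). Fstl3, a follistatin-like binder of activins (1.41 ± 0.29, adjusted p = 0.00916 by limma), and Neo1, the neogenin receptor of repulsive guidance molecules (1.40 ± 0.21, adjusted p = 0.00543 by limma), completed the 5 largest. Bambi, a pseudoreceptor that blocks signaling, fell, from 1.65 and 3.07 FPKM to 1.01 and 0.513 FPKM (-1.16 ± 0.30, adjusted p = 0.0168 by limma). Endothelial markers summed to between 12.2 and 15.5 FPKM in 3mo control and between 72.8 and 76.9 FPKM in 18mo control, and their part in the rise of Eng and Acvrl1 was not tested. Leaving out 3mo control replicate 1 gave 15 higher and 2 lower, whereas its replicate 2 gave 7 and 0, and leaving out replicate 1 or 2 of 18mo control gave 6 and 1 or 6 and 0. Of the genes named, Eng, Tbx2, Acvrl1 and Neo1 were called in all 4 of these fits, while Fstl3 was lost without either library of 18mo control and Bambi without replicate 2 of 3mo control or of 18mo control. With the length trend removed 6 were higher.

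In IOP retinas 11 of the 35 were higher at 18 than at 3 months and 0 lower, against 10.2% and 11.6% of all tested genes. An unadjusted limma p under 0.05 was reached by 23 of the 35 and by 7273 of all 13731. The median was 0.65 against 0.09 over all genes. Eng (1.98 ± 0.21, limma adjusted p = 0.00223), Neo1 (1.72 ± 0.21, adjusted p = 0.00302), Bmp1 (1.69 ± 0.33, adjusted p = 0.00901), Tbx2 (1.41 ± 0.27, adjusted p = 0.00811) and Acvrl1 (1.40 ± 0.22, adjusted p = 0.00562) led. Leaving out 3mo IOP replicate 1 or 2 gave counts of 6 and 4 higher, and leaving out 18mo IOP replicate 1 or 2 gave 11 and 9, not always of the same genes. Eng and Neo1 were called in all 4 fits, Bmp1 and Tbx2 were lost without either library of 3mo IOP, and Acvrl1 without 3mo IOP replicate 2.

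After a single elevation no gene of the list was called. So few of all genes were called that a list of 35 could hardly hold any, so nothing is read from this. In 3mo IOP limma called 0 of 35, against 0.568% higher and 0.00728% lower of all tested genes, and voom called 0 of the list. An unadjusted limma p under 0.05 was reached by 5 of the 35 and by 1169 of all 13731. The median was 0.25 against 0.13 over all genes. The smallest p-values were those of Fstl1, a secreted glycoprotein (0.79 ± 0.18, limma adjusted p = 0.127), and Nbl1, a DAN family antagonist (0.99 ± 0.24, adjusted p = 0.163). In 18mo IOP limma also called 0, against 0.117% and 0.00728%, and voom called 0 of the list. An unadjusted limma p under 0.05 was reached by 8 of the 35 and by 1297 of all 13731. Bmp1 (1.55 ± 0.33, limma adjusted p = 0.127) and Chrdl1, the chordin-like antagonist (0.77 ± 0.19, adjusted p = 0.178), came first, and the median was 0.27 against 0.09. For the interaction 0 were called and voom called 0. An unadjusted limma p under 0.05 was reached by 0 of the list and by 218 of all 13731. The lowest were Bmp5 (0.59 ± 0.28) and the tolloid-like protease gene Tll1 (0.63 ± 0.30), both with a limma adjusted p of 1.00. Without 3mo control replicate 2 in the young and without 18mo IOP replicate 1 in the aged comparison, 1 gene was called.

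After repeated pressure 33 of the 53 were tested, and 1 was called higher and 0 lower, no more than the 5.45% and 0.693% of all tested genes. An unadjusted limma p under 0.05 was reached by 9 of the 33 and by 2119 of all 13718. The median was 0.21 against 0.10. The called gene was Bmp1, a tolloid protease that cleaves chordin and procollagen and, despite its name, is no BMP ligand. Bmp1 had 1.61 and 1.56 FPKM in 4xIOP control and 9.72 and 8.19 FPKM in 4xIOP (2.18 ± 0.20, limma adjusted p = 9.17e-06), and this call held with each of the 4 libraries left out. In the single-IOP series it had 1.51 and 0.824 FPKM in 3mo control, 3.43 and 2.83 FPKM in 3mo IOP (1.15 ± 0.33, adjusted p = 0.255 by limma), 3.00 and 4.02 FPKM in 18mo control and 8.04 and 15.5 FPKM in 18mo IOP. In all 3 comparisons its treated libraries lay above the controls.

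**Figure D4:**
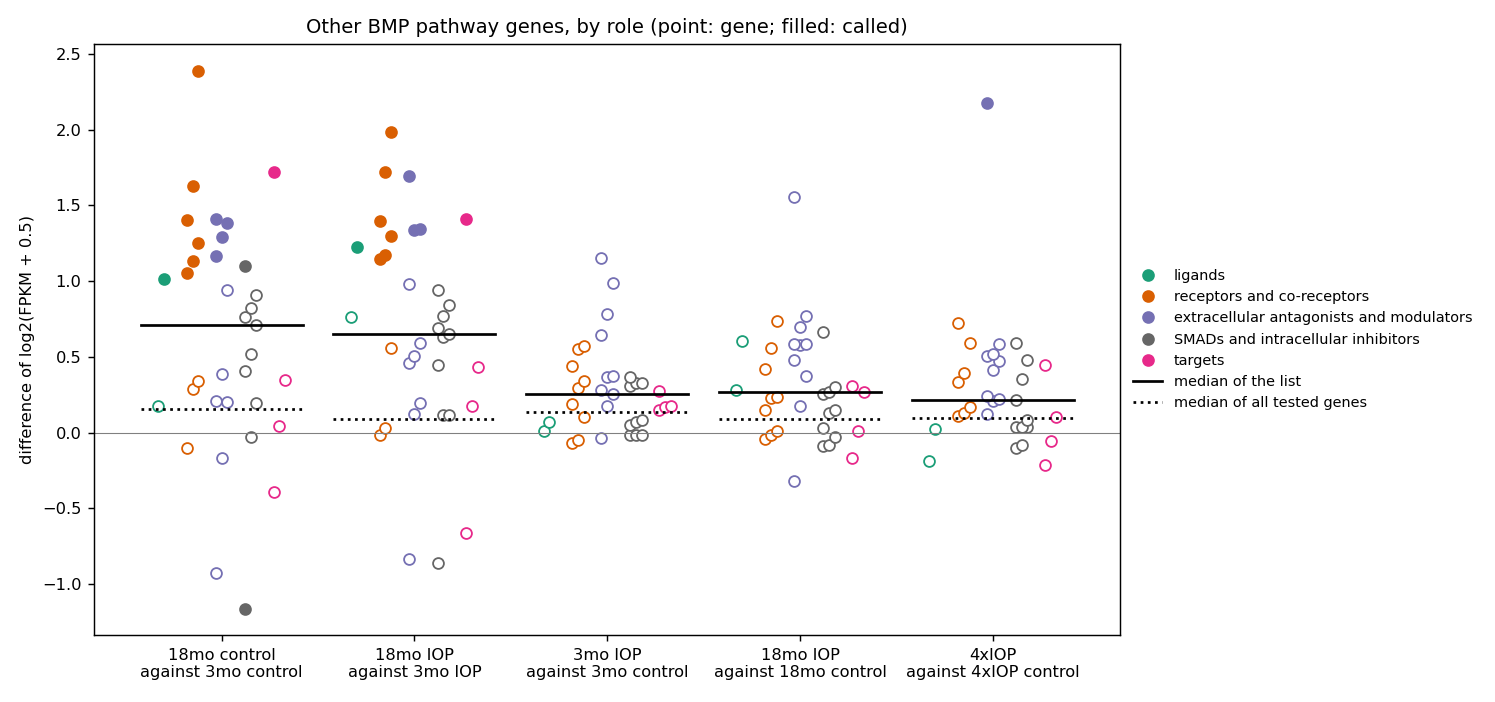
Differences of log2(FPKM + 0.5) of the tested genes of the 53-gene list in 5 comparisons, a point for a gene, colored by role and filled where called, with the medians of the list (solid) and of all tested genes (dotted). Called genes stand mostly in the age comparisons, at 13 and 11 higher, and Bmp1 is alone in 4xIOP.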

How the data were processed

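Whole retinas were profiled by poly(A)-selected, strand-specific RNA-seq (TRIzol, TruSeq, NovaSeq). Per the submitters' processing notes and the study's methods, the authors aligned reads to mm10 with STAR 2.7.8a and counted exonic tags of a single isoform per gene with HOMER. The values the authors deposited are FPKM, in a separate table for each series, with replicates kept apart. Library totals were recovered from them (100% of the checked values came to whole reads within 0.15), which gave 39766265 to 59455028 tags per library, and the floor of 3 reads covers counting error only.

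Here, genes whose mean reached 0.5 FPKM (13731 and 13718) were fitted as log2(FPKM + 0.5) by limma 3.58.1 under R 4.3.3 (lmFit, then eBayes using a trend), the 8 single-IOP libraries as 4 groups and the 4 repeated-IOP libraries alone. Calls needed p of 0.05 or less after Benjamini-Hochberg adjustment over all tested genes, with a log2 difference of 1 or more in size. The fit was tested on simulated data with 200 genes changed by 2 on the log2 scale. Calls recovered 79.5% to 85.5% of them in the single-IOP comparisons and 53.5% in 4xIOP. The 10 genes, the 53-gene list and the marker lists, written from general knowledge, were chosen with earlier results of these data known. Named besides the 10 were, per comparison, up to 5 called list genes per direction by size or, with none called, the 2 of smallest p, and the 5 genes with the highest r to Grem1. The secreted antagonists set beside Grem1 and the single marker genes (Dcn, Rgs5, Gfap, Pax2, Gnat1 and Nrl) fell outside this rule and were named after their values were seen. The alternatives are pseudocounts of 0.1 and 1, other filters, scalings and priors, a replicate block, calling by adjusted p only, fits of just the 2 groups compared, removal of the length trend, voom, and each library left out. Of the listed genes, Hfe2 was matched under its file symbol Hjv.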

Additional observations from a re-analysis of the deposited data

Results flagged for a closer look

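Bmp7 differed in direction between the young IOP responses. Its log2 difference was 0.54 (0.5385) in 3mo IOP, where both treated libraries were above both controls, and -0.424 in 4xIOP, where both were below. With a library left out, the former ranged from 0.21 to 0.87. The difference between these responses was not tested, since the series were normalized in separate tables.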

How the results depend on the processing

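The numbers of list genes called depended on settings mostly in the age comparisons. In 18mo control against 3mo control, 13 higher became 8 with a pseudocount of 1, 8 with quantile normalization and 6 with the length trend removed, and 1 lower became 0 with a pseudocount of 1 and 0 with the filter raised to 2 FPKM. With a library left out the counts ranged from 6 to 15 higher and 0 to 2 lower. In 18mo IOP against 3mo IOP, 11 higher became 19 and 0 lower became 1 with the adjusted p alone, and 1 lower was called with quantile normalization, with the length trend removed and with voom. With a library left out they ranged from 4 to 11 higher and 0 to 1 lower. For IOP at each age the range was 0 to 1 higher. The cause of these moves was not tested. Over all genes, calls in 3mo IOP went from 78 higher to 20 with size factors and 3 with voom, and in 18mo IOP from 16 to 0 and 0. Over all genes with libraries left out, the 78 became 0 and 253 without 3mo control replicates 1 and 2 and 0 and 7 without 3mo IOP replicates 1 and 2, and the 16 became 0 without either 18mo control and 140 and 6 without 18mo IOP replicates 1 and 2.

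With the replicate block, 13 and 11 list genes were higher with age and 1 was higher in 4xIOP, as without it, but the calls of Bmp4 in both age comparisons and of Id1 with age in controls were lost, and over all genes calls went from 78 to 20 higher in 3mo IOP and from 16 to 0 in 18mo IOP. The numbers are shared without a stated pairing, and deviations of same-numbered libraries correlated at -0.275, -0.530 and -0.290 over genes in the 3mo, 18mo and 4xIOP pairs. The median of all genes in 3mo IOP moved from 0.13 to -0.06 with voom, so small differences turned sign with scaling, as for Bmp4 and Bmpr1b in 3mo IOP (-0.07 and -0.14 with voom), Bmpr1a in 18mo IOP (-0.05) and Bmpr1a and Bmpr1b in 4xIOP (-0.08 and -0.08). Of 609 values of the 10 genes under alternatives, 90 moved by more than the replicate SD, 30 changed sign and 0 of those called did so. Grem1 rests on 4 to 40 reads in every group but 3mo IOP, the 3mo controls included, and Bmp4 on 6 to 44 at 18 months, which limits their precision.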
